A study of Mus musculus with 20 samples.

Results

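The heat shock chaperone genes Hspa8, Hspa4, Hsph1, Dnaja1, Hsp90aa1, Hsp90ab1, Hspd1, Hspe1 and Hspb1, together with Hsf1, the gene of the main heat shock transcription factor, were followed by symbol through RNA-seq count tables of p19/Nras cells. Of these 10 genes, 9 were found in each table, among 13107 genes of the Myc experiment and 11210 of the HU experiment, and Hspb1 was listed in neither. p19/Nras is a hepatocellular carcinoma line from a mouse tumor that lacks p19 and expresses Nras, and all 10 groups share this background. In the Myc experiment, control guide RNA cells (WT) and Trim33-KO lines made with a Trim33 guide RNA (KO1 and KO2) carried the empty pWZL vector (Ctrl) or a Myc vector, with 2 libraries in each of 6 groups. In the HU experiment, WT cells and a Trim33-KO line, whose number the labels do not give, received vehicle or 1 mM hydroxyurea (HU) for 4 hours, with 2 libraries in each of 4 groups. HU blocks ribonucleotide reductase and stalls replication forks. Each KO line is a model from a single editing experiment in 1 tumor line, and the labels do not say whether the libraries of a group came from separate cultures. The study speaks of independent RNA-seq experiments, and in a legend of more replicates than were analysed here, without tying libraries to them, so that p-values measure only the spread between these samples, which may be technical.

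Chaperones bind unfolded or partly folded proteins and keep them from aggregating. Hsp70 proteins do this in a cycle of ATP binding and hydrolysis: J-domain proteins such as Dnaja1 bring the client and stimulate hydrolysis, and Hsp110 proteins such as Hspa4 and Hsph1 exchange the nucleotide so that the client is released. Hsp90 proteins take over many clients late in folding, among them kinases and steroid receptors, while the chaperonin Hspd1 (Hsp60) and its lid Hspe1 (Hsp10) enclose proteins inside mitochondria. When unfolded proteins accumulate, Hsf1 forms trimers, binds heat shock elements in promoters and raises the transcription of many of these genes. Part of the family, led by Hspa8 and Hsp90ab1, is expressed at high levels without stress.

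Heat shock elements are runs of the unit GAA and its reverse complement TTC. Matches are shown for Hsph1 and Dnaja1, whose levels differed most between groups together with Hspa8, and for Hspe1, whose level differed little. RefSeq promoters, from 250 bases before to 50 after a start site, were found for 6 of the 10 genes and matched exactly to NCBIM37, the mm9 assembly that the counts are based on. The longer form of the element (GAANNTTCNNGAA or TTCNNGAANNTTC) was found in promoters of 3 of them, Hspd1, Hspe1 and Hsph1, and in 198 of all 32851 promoters (0.603%). The shorter form (GAANNTTC or TTCNNGAA), which lies inside every longer one, was found in 5, the same 3 with Dnaja1 and Hspb1, and in 15.1% of all promoters. Each search covered both strands. Capitals mark the match in the lines that follow.
Hspe1: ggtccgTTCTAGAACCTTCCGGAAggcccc
Hsph1: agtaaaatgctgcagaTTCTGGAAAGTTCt
Dnaja1: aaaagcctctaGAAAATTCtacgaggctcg
The Hspe1 line is chr1:55144897-55144926 on the plus strand, with the match 89 to 72 bases before the start site (-89 to -72). The same bases, read on the minus strand, lie at -144 to -127 of a start site of Hspd1 and within a 5′ untranslated exon of the annotated Hspd1 gene, since both genes are transcribed away from each other. The Hsph1 line is chr5:150438862-150438891 on the minus strand, inside an untranslated part of an exon, and its match lies 36 to 48 bases after a start site. The Dnaja1 line, chr4:40669366-40669395 on the plus strand, holds only the shorter form, at -124 to -117 of a start site, in no exon of the annotated protein-coding transcripts. A match describes letters in a window and is not a measured binding site.

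Libraries of the Myc experiment held 14753177 to 17949430 counts, and those of the HU experiment, which measures low genes less precisely, held 2315327 to 3082202. Levels are given as CPM, the counts of a gene scaled to the total of its library, and were compared only within an experiment. Among the Ctrl libraries, the Trim33 transcript stood at 235.6 and 247.3 CPM for WT, at 122.3 and 130.3 for KO1 and at 203.9 and 210.1 for KO2. Among libraries labelled Myc it stood at 132.3 and 157.6 CPM for WT, at 186.1 and 195.3 for KO1 and at 124.9 and 125.7 for KO2. The Trim33 mRNA of the libraries labelled KO1 Myc was therefore above that of the libraries labelled WT Myc, against the label. The libraries labelled WT Myc also went against theirs: Trim33 was called lower there than in WT Ctrl (log2FC -0.82 ± 0.069), to a level between those of KO1 Ctrl and KO2 Ctrl, and was not called between the libraries labelled KO2 Myc and WT Myc (-0.20 ± 0.070). Of 307 genes called between KO2 Ctrl and KO1 Ctrl with an absolute log2 fold change of at least 2, 302 (98.4%) differed in the opposite direction between the libraries labelled KO2 Myc and KO1 Myc. For this reason, results of the listed genes that compare a KO line with the Myc vector are also given over both lines together. Those of other lists and of the Myc transcript are given by label only. Taking both lines together does not depend on which line is which but leaves the libraries labelled WT Myc as they are. Every direction drawn from those libraries below carries this limit. The Myc transcript was at 415.2 and 420.5 CPM in WT Ctrl, from 184.7 to 221.9 in the KO Ctrl libraries, at 461.2 and 466.3 in the libraries labelled WT Myc (log2FC 0.07 against WT Ctrl, not called), and from 462.4 to 654.9 in those labelled KO Myc. In the HU experiment, Trim33 was lower in all 4 KO libraries (43.0 to 51.5 CPM) than in the 4 WT libraries (127.3 to 145.0 CPM). Of 11 hepatocyte markers, 0 were listed in the Myc table and 1, Apob, in the HU table, whereas the keratins Krt8 and Krt18 were at no less than 928.2 CPM in any library. Of 8 blood, endothelial and stromal markers, 4 were listed in the Myc table, and their sum was 405.6 to 456.9 CPM in KO1 Ctrl and 430.3 to 445.5 in the libraries labelled KO2 Myc against 37.7 to 75.4 in the other 8 libraries. In the HU experiment the sum of the 3 listed was 43.1 to 54.0 CPM in WT and 3.19 to 9.05 in KO libraries. The collagens Col3a1 and Col1a1 made up most of the high sums, while the endothelial and leukocyte markers Ptprc, Pecam1 and Cdh5 were listed in neither table. The part of these genes in the chaperone results was not tested, and in bulk RNA fewer cells of a type and less RNA per cell cannot be told apart.

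The 9 listed genes together took 0.867% ± 0.0133 (SD, n = 2) of all counts in WT Ctrl, and 1.08% ± 0.0120 and 1.11% ± 0.000658 in the KO1 and KO2 Ctrl groups. Per kilobase of the longest coding transcript, Hsp90ab1 was the highest in every group of both experiments, from 1522 to 2021 CPM per kb across the group means of the Myc experiment. Hspa8 came next, from 612 to 1208 CPM per kb, and Hsf1 (25.1 to 31.9) and Dnaja1 (28.1 to 43.7) were the lowest of the Myc experiment. The members differed in how far they varied: across the 6 group means of the Myc experiment, the highest stood 2.20 times above the lowest for Hsph1, 1.97 times for Hspa8 and 1.56 times for Dnaja1, but 1.21 times for both Hspd1 and Hspe1.

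**Figure D1:**
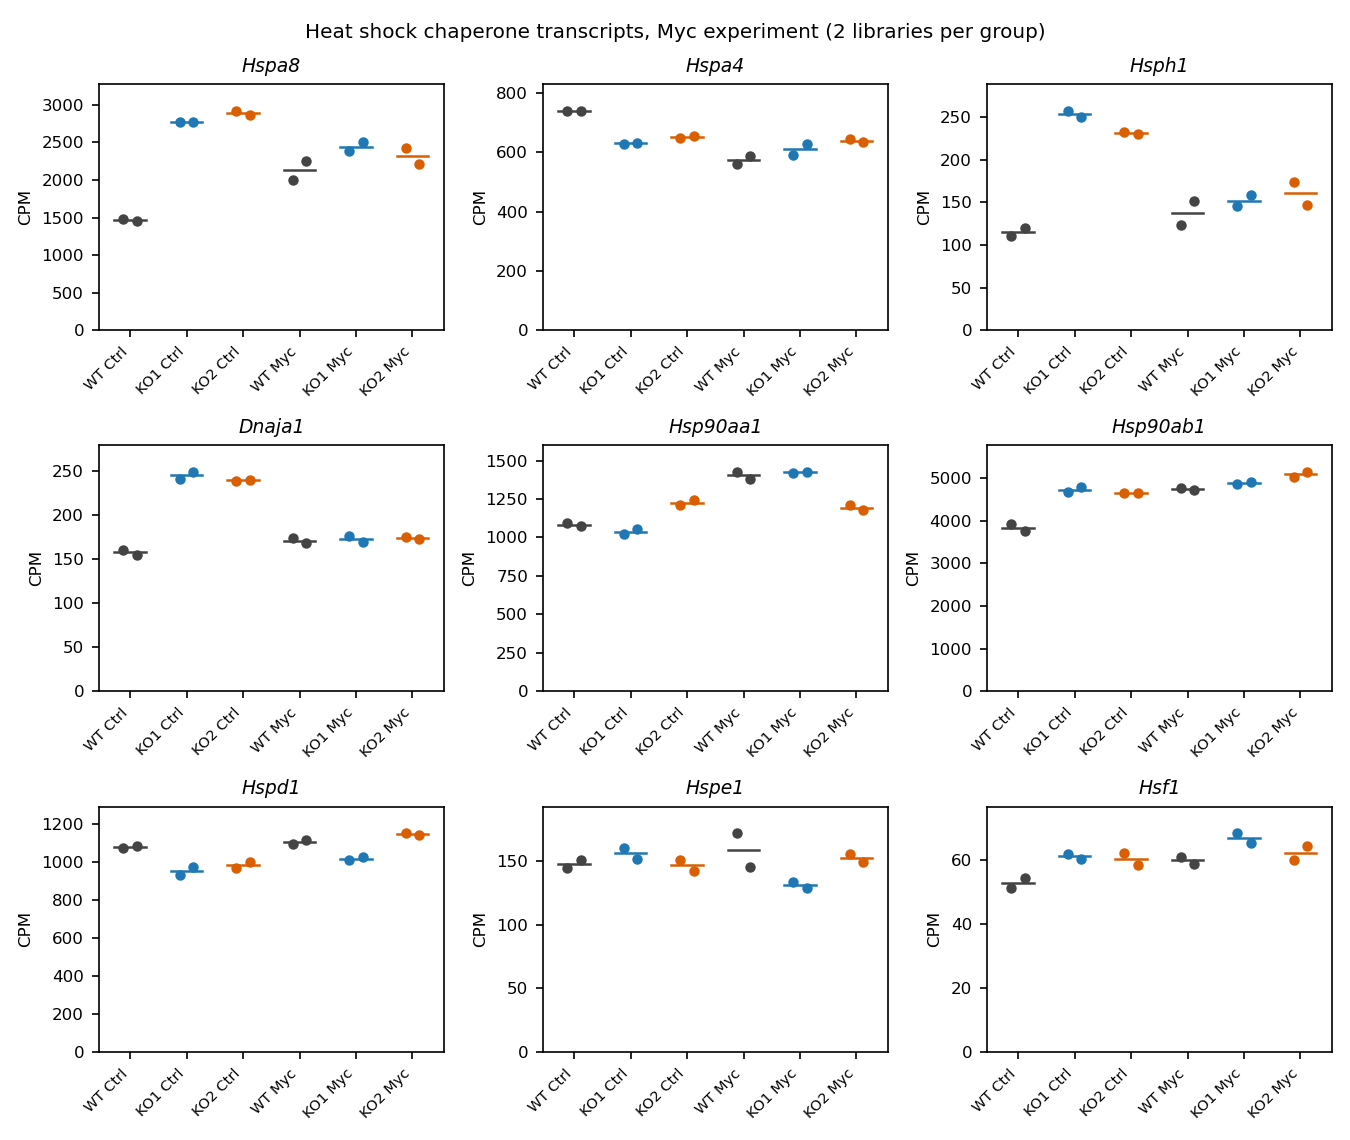
Level of each listed gene in CPM (vertical axes, from 0) in the 6 groups of the Myc experiment. Points are single libraries, 2 per group, and bars are their means. Hspa8, Hsph1, Dnaja1, Hsp90ab1 and Hsf1 stand higher in all 4 KO Ctrl libraries than in WT Ctrl, and Hspa4 and Hspd1 stand lower. Hsf1 was not called in either line. The share of all genes that separate in this way was not determined.

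With the Ctrl vector, Hspa8, Hsph1 and Dnaja1, which work together in the cytosolic Hsp70 cycle, were higher in both Trim33-KO lines. Hspa8, the constitutive Hsp70 of the cytosol, with the Ctrl vector was at 1478 and 1450 CPM for WT, at 2778 and 2771 for KO1 and at 2922 and 2862 for KO2. All 4 KO libraries were above both WT libraries, with a log2 fold change (log2FC) of 0.87 ± 0.061 (standard error) in KO1 (adjusted p = 3.48e-09) and 0.90 ± 0.061 in KO2 (adjusted p = 3.10e-09). Hsph1, the inducible Hsp110, was at 110.9 and 119.7 CPM for WT, at 257.4 and 250.6 for KO1 and at 232.3 and 230.7 for KO2, again without overlap. Its log2FC was 1.09 ± 0.088 for KO1 (adjusted p = 1.96e-08) and 0.92 ± 0.088 for KO2 (adjusted p = 1.62e-07), the largest rise of the listed genes in each line. Dnaja1, the J-domain partner, was at 160.4 and 155.1 CPM for WT, at 241.6 and 249.4 for KO1 and at 239.5 and 240.4 for KO2, which gave log2FC values of 0.58 ± 0.052 and 0.52 ± 0.052 (adjusted p = 6.62e-08 and 2.85e-07). Adjusted p-values here and below are from edgeR's quasi-likelihood test, adjusted over all genes of the experiment. The KO1 and KO2 comparisons share the WT Ctrl libraries and are given side by side rather than as independent results.

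Not every partner of Hsp70 rose. Hspa4, the other Hsp110 protein on the list, was at 739.8 and 738.4 CPM in WT Ctrl and at 629.4 to 655.3 in the 4 KO Ctrl libraries. It fell in both lines, with a log2FC of -0.28 ± 0.049 in KO1 (adjusted p = 9.88e-05) and -0.26 ± 0.049 in KO2 (adjusted p = 0.000221), so that the Hsp110 genes of the list moved in opposite directions. Hsp90ab1, the constitutive Hsp90, was at 3917 and 3753 CPM in WT Ctrl and between 4651 and 4785 in the KO Ctrl libraries. Its log2FC was 0.25 ± 0.047 in KO1 (adjusted p = 0.000201) and 0.20 ± 0.047 in KO2 (adjusted p = 0.00162), and the call in KO2 was lost without WT Ctrl replicate 2 (adjusted p = 0.0235), KO2 Ctrl replicate 1 (0.0159) or KO2 Ctrl replicate 2 (0.0167). Hsp90aa1, the inducible Hsp90, was at 1092 and 1072 CPM for WT, at 1019 and 1056 for KO1 and at 1210 and 1244 for KO2. Neither line differed from WT at the threshold of 0.01, but the lines differed from each other, with KO2 above KO1 by a log2FC of 0.21 ± 0.049 (adjusted p = 0.00336). That difference was the only one called among the 9 genes between the lines, against 18.3% of all genes, and it was lost without any 1 of these 4 libraries (adjusted p from 0.0190 to 0.0527).

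The mitochondrial chaperonin showed a smaller change in the other direction. Hspd1 was at 1074 and 1085 CPM in WT Ctrl and at 931.5 to 1002 in the 4 KO Ctrl libraries, a log2FC of -0.23 ± 0.048 in KO1 (adjusted p = 0.000448) and -0.21 ± 0.048 in KO2 (adjusted p = 0.00104). The calls were lost without KO1 Ctrl replicate 1 (adjusted p = 0.0122), and, for KO2, without WT Ctrl replicate 2 (0.0104) or KO2 Ctrl replicate 1 (0.0206). Its lid Hspe1 ranged from 141.7 to 160.1 CPM over all 6 Ctrl libraries, with overlapping groups, and did not pass the test in either line. The gene models of Hspd1 and Hspe1 share 112 bases (chr1:55144976-55145087), and reads from there cannot be assigned without strand. Hsf1 itself was at 51.3 and 54.4 CPM in WT Ctrl and at 58.3 to 62.3 in the KO Ctrl libraries. Its log2FC of 0.16 ± 0.069 in KO1 and 0.11 ± 0.069 in KO2 did not pass the test (adjusted p = 0.0593 and 0.192).

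In all, 6 of the 9 genes were called in KO1 Ctrl (4 higher, 2 lower), where 52.2% of all genes were called, and 6 in KO2 Ctrl (4 higher, 2 lower), where 49.9% were. The median log2FC of the 9 was 0.16 and 0.11, against -0.0036 and -0.011 over all genes. The 6 of 9 (66.7%) lay near the share of all genes.

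**Figure D2:**
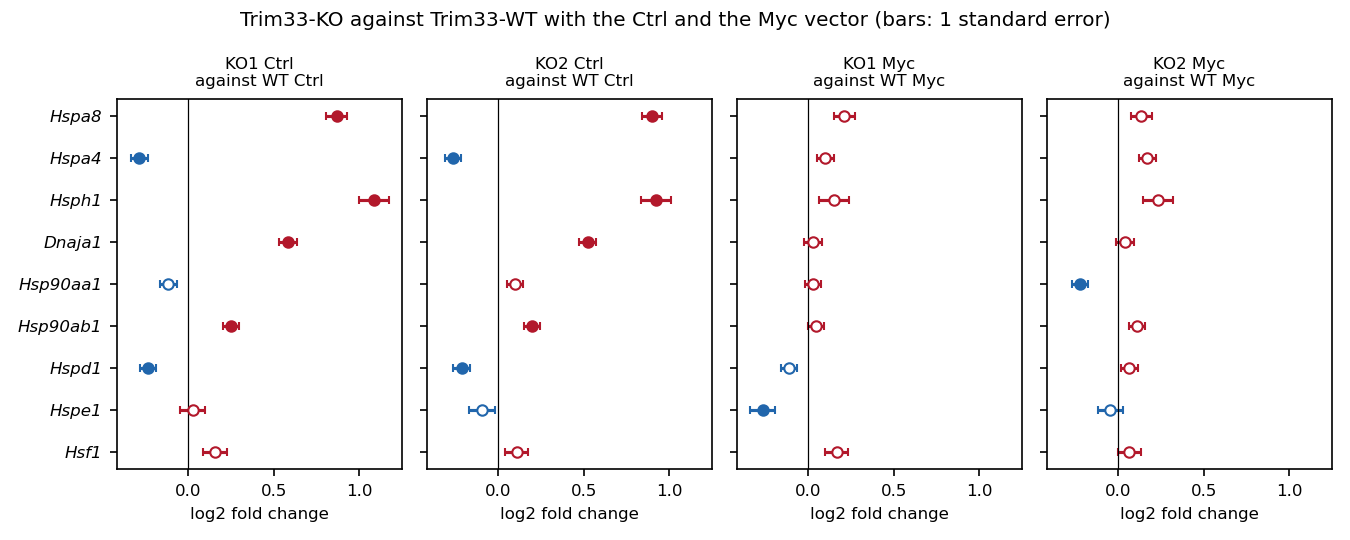
Log2 fold change of the 9 listed genes in KO1 and KO2 against WT, with the Ctrl vector (left pair of panels) and with the Myc vector (right pair, by label). Bars are 1 standard error, filled points passed an adjusted p of 0.01, red is higher and blue lower. The changes of Hspa8, Hsph1 and Dnaja1 of 0.52 to 1.09 with the Ctrl vector did not pass the test with the Myc vector.

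The wider network held genes called in both directions. Among 16 textbook stress-inducible targets of heat shock factors, 15 were tested, and 10 were higher and 3 lower in KO1 Ctrl (median log2FC 0.41), 9 higher and 3 lower in KO2 Ctrl (median 0.33). These are 86.7% and 80.0% of the list, beside 52.2% and 49.9% of all genes. Cryab, a small heat shock protein, had log2FC values of 2.58 ± 0.13 (KO1) and 1.10 ± 0.15 (KO2), and Hspb8, which works with the co-chaperone Bag3 in chaperone-assisted autophagy, 0.90 ± 0.061 and 0.84 ± 0.061. Bag3 itself had a log2FC of 0.41 ± 0.067 and 0.31 ± 0.067, and Dnajb1, a J-domain protein that Hsf1 induces, 0.49 ± 0.082 and 0.63 ± 0.081. The stress-inducible Hsp70 gene Hspa1b was low, at 1.49 and 1.57 CPM for WT, 10.2 and 7.75 for KO1 and 5.90 and 7.27 CPM for KO2, and its near-identical neighbour Hspa1a ran in parallel. Their reads cannot be told apart with certainty, and both were named after their values were seen. Not all targets rose: Ubb, a polyubiquitin gene, had log2FC values of -0.51 ± 0.059 (KO1) and -0.75 ± 0.059 (KO2). Chordc1, an Hsp90 co-chaperone, had -0.24 ± 0.057 in both lines. The shift of this list was not seen in the HU experiment. In KO vehicle against WT vehicle, 2 of the 15 tested targets were called higher and 2 lower, with a median log2FC of -0.13. The difference between the experiments was not tested.

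**Figure D3:**
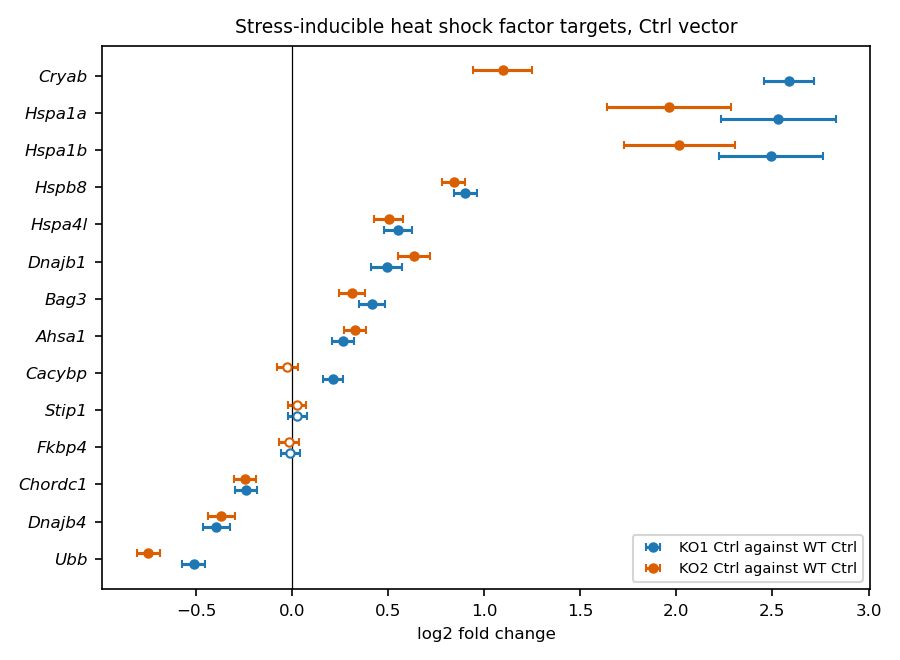
Log2 fold change of 14 of the 15 tested stress-inducible heat shock factor targets in KO1 Ctrl (blue) and KO2 Ctrl (orange) against WT Ctrl. Bars are 1 standard error and filled points passed an adjusted p of 0.01. Cryab, Hspa1a and Hspa1b lie farthest to the right and Ubb farthest to the left in both lines.

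Hspa5 and most mitochondrial chaperones were lower in the KO Ctrl groups. By edgeR, they were not called in KO vehicle against WT vehicle of the HU experiment. Hspa5 (BiP), the Hsp70 of the endoplasmic reticulum, had a log2FC of -1.01 ± 0.074 in KO1 Ctrl and -1.40 ± 0.075 in KO2 Ctrl. Hspa9 (mortalin), the Hsp70 of the mitochondrial matrix, had -0.99 ± 0.060 and -0.90 ± 0.060. Of 8 mitochondrial chaperones and proteases, 7 were lower in KO1 and 6 in KO2, with 0 higher (median log2FC -0.44 and -0.51). Lonp1, the matrix protease that degrades misfolded proteins, had -2.53 ± 0.082 and -2.29 ± 0.081, and Dnaja3, the J-domain partner of Hspa9, -0.80 ± 0.082 and -0.76 ± 0.082. By contrast, of the 8 subunits of the cytosolic chaperonin TRiC/CCT, which folds actin and tubulin, 0 were higher and 2 lower in KO1, and 1 was higher and 2 lower in KO2. Cct4 had the largest change, with a log2FC of -0.58 ± 0.053 and -0.55 ± 0.053. Among 14 Hsp90 co-chaperones, 3 were higher and 5 lower in KO1 and 2 higher and 5 lower in KO2, or 57.1% and 50% of the list, near the 52.2% and 49.9% of all genes that apply to every list here. Among 15 further Hsp40 genes, 4 were higher and 6 lower in KO1 and 2 higher and 4 lower in KO2. Of 10 tested Hsp70 family genes, 5 were higher and 2 lower in KO1 and 4 and 2 in KO2. The 4 tested small heat shock proteins gave 3 higher and 1 lower in each line. Of 8 nucleotide exchange and linker factors, 2 were higher and 1 lower in KO1 and 1 and 0 in KO2, and of 6 prefoldin subunits 2 were lower in KO1 and 4 in KO2. Hsf2, Hsf4 and Hsbp1, the other tested heat shock factors and regulators, gave 0 called of 3 by edgeR in each line.

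Between WT Ctrl and the libraries labelled WT Myc, Hspa8 and both Hsp90 genes were called higher with the Myc vector and Hspa4 lower. Hspa8 was at 1999 and 2254 CPM against 1478 and 1450 in WT Ctrl, a log2FC of 0.46 ± 0.060 (adjusted p = 9.89e-06). Hsp90aa1 was at 1427 and 1383 CPM, above both WT Ctrl libraries (log2FC 0.29 ± 0.049, adjusted p = 8.69e-05), and Hsp90ab1 at 4780 and 4733 CPM (log2FC 0.23 ± 0.047, adjusted p = 0.000585). Without WT Ctrl replicate 2, Hsp90ab1 lost its call (adjusted p = 0.0118). Hspa4 was at 559.7 and 586.4 CPM and fell, with a log2FC of -0.45 ± 0.049 (adjusted p = 1.40e-06). Hsph1 was at 123.8 and 151.6 CPM, with a log2FC of 0.17, and passed the test only without WT Myc replicate 1 (log2FC 0.31, adjusted p = 0.00173). Dnaja1 was at 173.6 and 168.5 CPM and was not called. In total 3 of the 9 genes were higher and 1 lower, where 44.3% of all genes were called. The fit with WT Ctrl and WT Myc alone called 2 genes in place of 4.

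In the KO lines, the Myc vector went with lower Hsph1 and Dnaja1. Among libraries labelled Myc, Hsph1 was at 145.8 and 158.3 CPM for KO1 and at 174.0 and 147.3 CPM for KO2, below all 4 KO Ctrl libraries (230.7 to 257.4). Dnaja1 was between 169.7 and 176.4 CPM in the 4 libraries labelled KO Myc, below all 4 KO Ctrl libraries (239.5 to 249.4). Over both lines together, the log2FC of KO Myc against KO Ctrl was -0.64 ± 0.061 for Hsph1 (adjusted p = 2.92e-07), -0.49 ± 0.037 for Dnaja1 (adjusted p = 2.17e-08) and -0.26 ± 0.043 for Hspa8 (adjusted p = 9.99e-05). In the same comparison Hsp90aa1 rose by 0.20 ± 0.034 (adjusted p = 0.000109) and Hspd1 by 0.15 ± 0.034 (adjusted p = 0.00108), which makes 2 higher and 3 lower of 9, where 42.0% of all genes were called.

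Line by line, as labelled, 1 gene was higher and 3 lower in KO1 (36.1% of all genes called) and likewise in KO2 (38.8%). Hsph1 and Dnaja1 were lower in both, with log2FC of -0.76 and -0.52 in KO1 and -0.52 and -0.45 in KO2. Hsp90aa1 was called higher in KO1 (log2FC 0.44 ± 0.049) and was at -0.03 in KO2, uncalled. This gene differed between the lines already with the Ctrl vector, and its levels in the libraries labelled Myc, 1420 and 1427 CPM for KO1 and 1210 and 1177 CPM for KO2, stood in the reverse order. Hspe1 was called lower in KO1 (log2FC -0.27 ± 0.074, adjusted p = 0.00610) and lost the call without any 1 of these 4 libraries (adjusted p from 0.0149 to 0.0706). In KO2, Hspa8 was lower (-0.31 ± 0.060, adjusted p = 0.000466, and 0.0138 without KO2 Myc replicate 2) and Hspd1 higher (0.23 ± 0.048, adjusted p = 0.000733, and 0.0167 without KO2 Ctrl replicate 1).

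Between the libraries labelled KO Myc and WT Myc, few listed genes were called. Trim33 in the libraries labelled KO Myc stood on both sides of WT Myc, above it in KO1 and below it in KO2. Over both lines together, 0 of the 9 genes were called between KO Myc and WT Myc by edgeR's quasi-likelihood test, where 33.8% of all genes were, and log2FC ranged from -0.16 ± 0.063 for Hspe1 to 0.19 ± 0.076 for Hsph1. Hspa8 had 0.17 ± 0.053 (adjusted p = 0.0132) and Dnaja1 0.03 ± 0.045 (adjusted p = 0.593). By label, 1 gene was called in KO1, Hspe1 with a log2FC of -0.27 ± 0.074 (adjusted p = 0.00936), where 25.1% of all genes were called. In KO2 the 1 called gene was Hsp90aa1, with -0.22 ± 0.048 (adjusted p = 0.00122), where 35.2% were. Hspe1 was not called without WT Myc replicate 1 (adjusted p = 0.117), KO1 Myc replicate 1 (0.0369) or KO1 Myc replicate 2 (0.0842), and Hsp90aa1 was not called without KO2 Myc replicate 2 (0.0165). The WT Myc libraries differed from each other more than any other pair of replicates, and without WT Myc replicate 2 Hspa8 and Hsph1 were called higher in KO1 (log2FC 0.29 and 0.30, adjusted p = 0.000210 and 0.00323) and in KO2 (0.22 and 0.38, adjusted p = 0.00260 and 0.000253), and Hspa4 in KO2 (0.20, adjusted p = 0.00348). Without KO2 Myc replicate 2, Hsph1 was also called in KO2 (0.35, adjusted p = 0.00842).

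The difference between the responses to the Myc vector was tested directly. It equals the KO against WT difference with the Myc vector minus that with the Ctrl vector, and it uses the same Ctrl libraries. With 0 of the 9 genes called between KO Myc and WT Myc over both lines, it largely restates the Ctrl results above with the sign turned. Over both KO lines together, the response of KO cells was below that of WT cells for Hsph1 (difference of log2FC -0.81 ± 0.11, adjusted p = 1.35e-05), Hspa8 (-0.71 ± 0.074, adjusted p = 1.12e-06) and Dnaja1 (-0.52 ± 0.064, adjusted p = 6.25e-06). It was above that of WT cells for Hspa4 (0.41 ± 0.060, adjusted p = 4.28e-05) and Hspd1 (0.20 ± 0.059, adjusted p = 0.00998). These 5 of 9 calls compare with 34.7% of all genes. By label, 1 gene was above and 3 below in KO1 (37.3% of all genes called) and 2 above and 4 below in KO2 (32.8%). The Myc transcript itself rose more in the KO lines, with log2FC values of 1.73 ± 0.057 for KO1 and 1.16 ± 0.056 for KO2 against 0.07 ± 0.055 in WT, from a lower level with the Ctrl vector, and its part in the chaperone differences was not tested. Of the 8 mitochondrial chaperones and proteases, 7 responded more positively in KO1 and 5 in KO2, with 0 in the other direction. Both sides of this difference moved. With the Myc vector, 4 of the 8 were lower and 0 higher in the libraries labelled WT Myc (median log2FC -0.21). In KO1, 6 were higher and 0 lower, and in KO2 4 were higher and 1 lower. Of the 15 stress-inducible targets, 10 responded more negatively and 3 more positively in KO1, and 6 and 2 in KO2. The fits share the WT libraries, and the KO lines are as labelled.

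In the HU experiment, Hspa8 and Hsph1 were lower with HU in both genotypes. Hspa8 was at 3036 and 2901 CPM in WT vehicle and 1680 and 1677 in WT HU, a log2FC of -0.83 ± 0.090 (adjusted p = 5.88e-11). In the KO line Hspa8 was at 3074 and 3115 CPM with vehicle and 1796 and 1910 with HU, a log2FC of -0.75 ± 0.090 (adjusted p = 2.23e-09). All HU libraries lay below all vehicle libraries, and the responses differed by 0.09 ± 0.13 (adjusted p = 0.967). Hsph1 was at 336.0 CPM in both WT vehicle libraries and at 213.5 and 226.3 in WT HU (log2FC -0.62 ± 0.11, adjusted p = 2.83e-05), and in the KO line at 319.4 and 277.0 with vehicle and 215.2 and 233.3 with HU. The KO change of -0.42 ± 0.11 (adjusted p = 0.0111) lost its call without KO vehicle replicate 1 (adjusted p = 0.187) or KO HU replicate 1 (0.222).

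**Figure D4:**
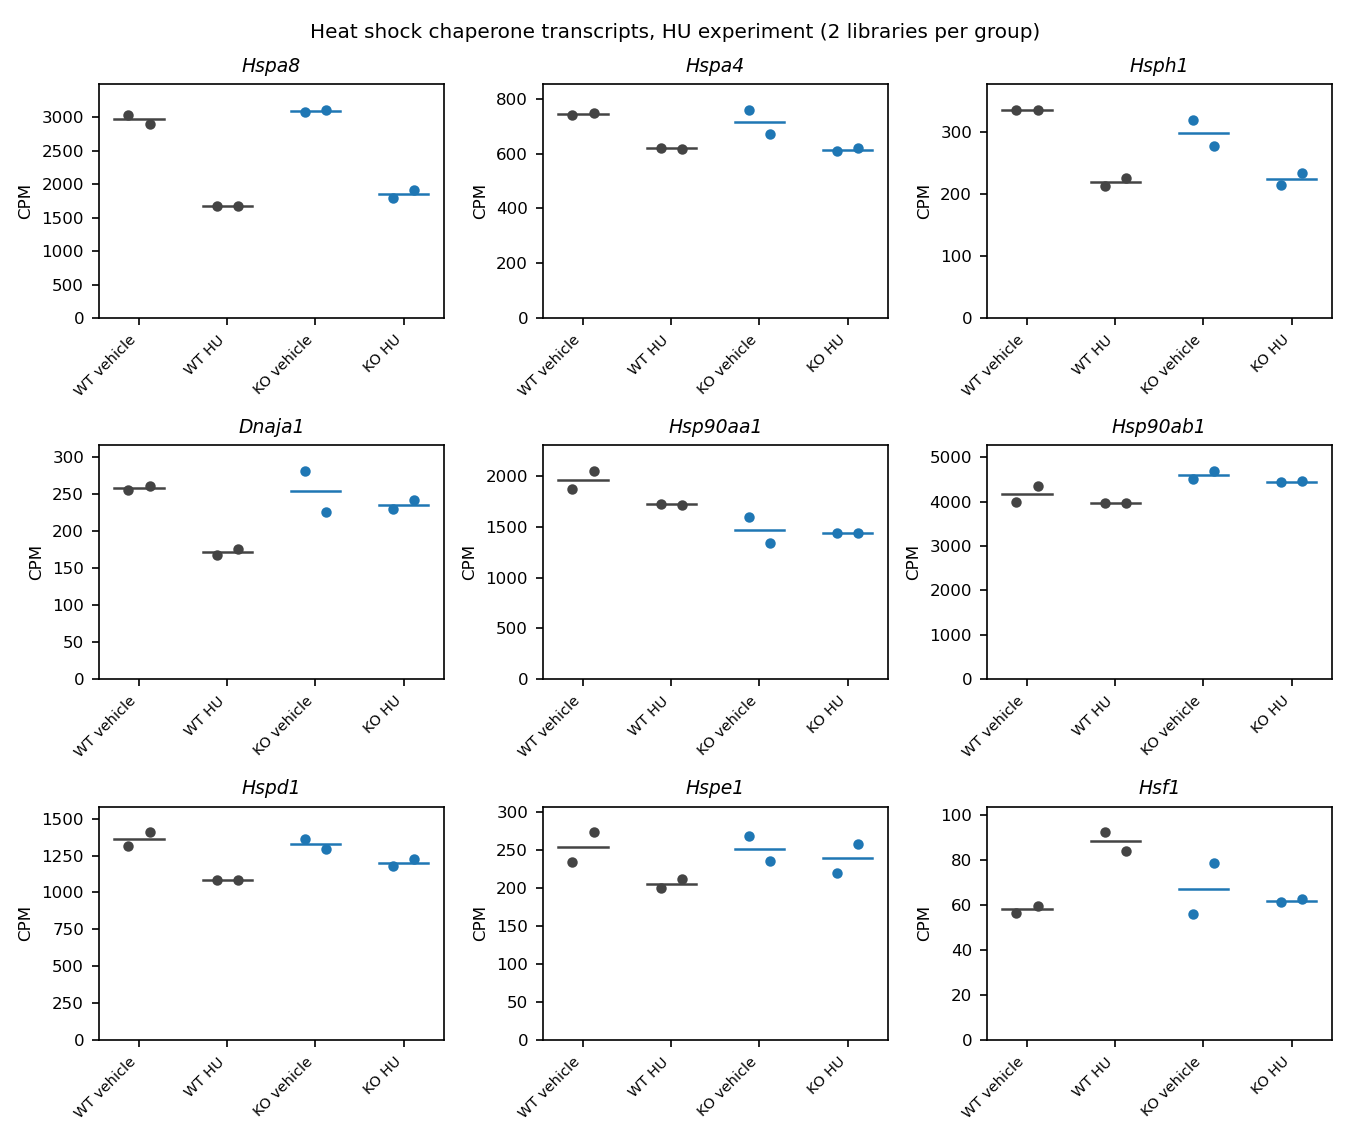
Level of each listed gene in CPM (vertical axes, from 0) in the 4 groups of the HU experiment. Points are single libraries, 2 per group, and bars are their means. Hspa8, Hsph1, Hspa4 and Hspd1 are lower in all 4 HU libraries than in all 4 vehicle libraries, and Dnaja1 is lower in WT HU. The share of all genes that separate in this way was not determined.

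Dnaja1 was at 256.6 and 261.5 CPM in WT vehicle and 167.4 and 176.1 in WT HU, and it fell by a log2FC of -0.60 ± 0.12 (adjusted p = 0.000139). In the KO line it was at 282.3 and 226.5 CPM with vehicle and 230.2 and 241.9 with HU, overlapping and uncalled. With HU, Dnaja1 was higher in KO than in WT (log2FC 0.51 ± 0.12, adjusted p = 0.00188), a call that was lost without WT HU replicate 1 (adjusted p = 0.0723). The difference between the HU responses themselves was 0.49 ± 0.17 and did not pass the test (adjusted p = 0.707). Hspd1 was at 1313 and 1412 CPM in WT vehicle and 1086 and 1083 in WT HU (log2FC -0.34 ± 0.094, adjusted p = 0.0103), and the call was lost without WT HU replicate 1 or 2 (adjusted p = 0.151 in either case). In the KO line Hspd1 was at 1364 and 1292 CPM with vehicle and 1176 and 1225 with HU, without overlap but uncalled. Hspe1, at 234.1 and 274.5 CPM with vehicle and 200.2 and 211.4 with HU in WT cells, was not called, except without WT vehicle replicate 1 (adjusted p = 0.0283). Hspa4 was at 739.4 and 748.5 CPM in WT vehicle and 621.0 and 616.3 in WT HU, without overlap but with an adjusted p of 0.0637 by edgeR's quasi-likelihood test, and DESeq2 called it (adjusted p = 0.0478). In the KO line Hspa4 was at 760.6 and 669.9 CPM with vehicle and 608.4 and 619.1 with HU, also without overlap and uncalled by edgeR.

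Hsf1 was the only listed gene called higher with HU. It was at 56.6 and 59.6 CPM in WT vehicle and 92.5 and 83.7 in WT HU, a log2FC of 0.59 ± 0.17 (adjusted p = 0.0159). The call was lost without any 1 of these 4 libraries (adjusted p from 0.0559 to 0.206) and with DESeq2 (adjusted p = 0.0716). In the KO line Hsf1 was at 55.9 and 78.4 CPM with vehicle and 61.3 and 62.4 with HU, so that the vehicle libraries enclosed the HU libraries. The HU responses differed by -0.72 ± 0.24, which did not pass the test (adjusted p = 0.707). With HU, Hsf1 in KO against WT had a log2FC of -0.46 ± 0.17 and was not called (adjusted p = 0.0638 by edgeR's quasi-likelihood test). It was called with only these groups in the fit (adjusted p = 0.0211), with a replicate block (0.0467) and with counts divided by 2 (0.0459).

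Hsp90aa1 was called lower in KO than in WT with vehicle. It was at 1869 and 2052 CPM in WT vehicle and 1594 and 1340 in KO vehicle, a log2FC of -0.38 ± 0.095 (adjusted p = 0.00449), and the call was lost without KO vehicle replicate 2 (adjusted p = 0.137). With HU it was at 1719 and 1717 CPM in WT and 1437 and 1442 in KO, without overlap but uncalled (log2FC -0.21 ± 0.095), and HU against vehicle in WT cells gave a similar, uncalled value of -0.20 ± 0.094. Hsp90ab1 was between 3964 and 4350 CPM in the 4 WT libraries and between 4442 and 4704 in the 4 KO libraries, also without a call. With only the KO HU and WT HU groups in the fit, Hsp90ab1 (adjusted p = 0.000120) and Hsp90aa1 (adjusted p = 0.00308) were called between them, by edgeR's quasi-likelihood test. This was not particular to the Hsp90 genes. The same fit also called Hspa8 (log2FC 0.19, adjusted p = 0.00454), Hspd1 (0.00850), Hspe1 (0.0363) and Hsf1 (0.0211), besides Dnaja1. The rise of Hspa8, Hsph1 and Dnaja1 seen in KO Ctrl against WT Ctrl was not called in KO vehicle against WT vehicle, where their log2FC were 0.10, -0.13 and 0.01. The experiments were processed separately, and the difference between them was not tested.

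**Figure D5:**
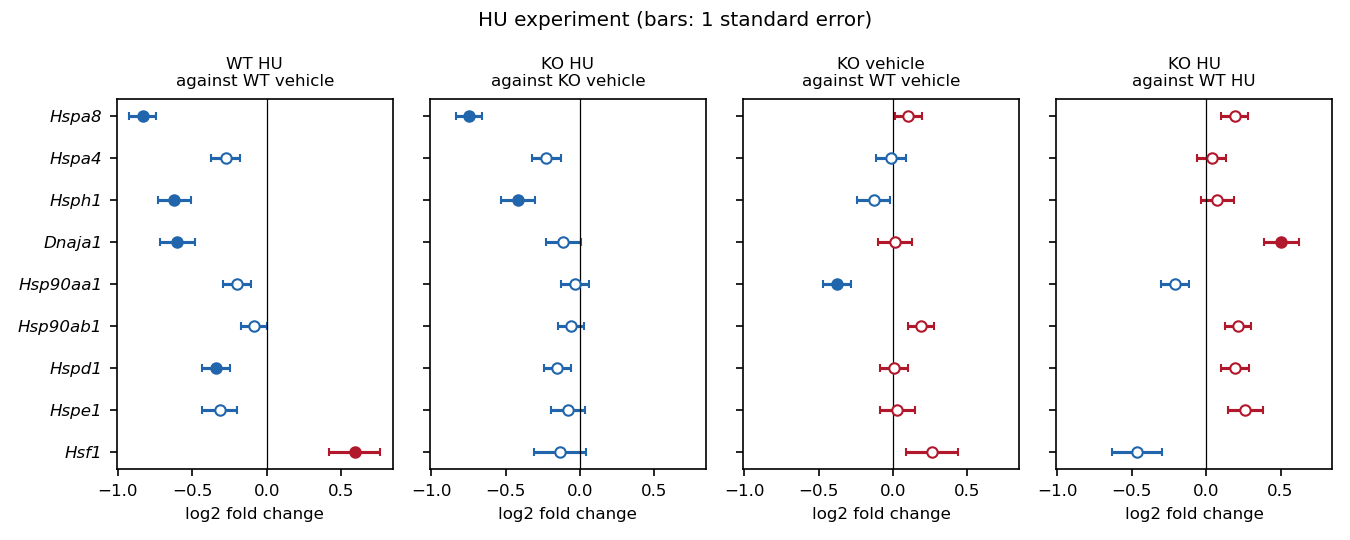
Log2 fold change of the 9 listed genes in the HU experiment, with HU against vehicle in WT and KO cells (left pair of panels) and KO against WT with vehicle and with HU (right pair). Bars are 1 standard error, filled points passed an adjusted p of 0.05, red is higher and blue lower. Hspa8 lies lowest in both HU panels, at -0.83 and -0.75.

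By count, HU in WT cells called 1 listed gene higher and 4 lower, where 9.83% of all genes were called, and HU in KO cells called 0 higher and 2 lower, where 6.45% were. KO against WT called 0 higher and 1 lower with vehicle (12% of all genes) and 1 higher and 0 lower with HU (11%). Between the HU responses, edgeR called 0 of the 9 genes (0.0714% of all genes) and so did DESeq2, and in each tool 2 genes, Hsf1 and Dnaja1, had an unadjusted p under 0.05. The listed genes took 1.21% ± 0.0389 of the counts in WT vehicle and 0.975% ± 0.00116 in WT HU, and 1.21% ± 0.0214 and 1.03% ± 0.0187 in the KO line.

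Among the 15 tested stress-inducible targets, HU in WT cells lowered 6 and raised 1 (median log2FC -0.18), or 46.7% of the list beside 9.83% of all genes. In KO cells 1 was lower and 0 higher (median log2FC -0.067), or 6.67% of the list beside 6.45% of all genes. Hspa1b fell in WT cells by a log2FC of -1.03 ± 0.28, from 39.3 and 31.0 CPM to 14.9 and 19.8, and was at 19.2 and 22.6 CPM in KO vehicle and 14.97 and 23.0 in KO HU. Ahsa1, which activates the ATPase of Hsp90, had -0.59 ± 0.13 and Chordc1 -0.56 ± 0.13 in WT cells. Cryab was the exception, with 1.30 ± 0.44, from 2.59 and 3.06 CPM to 7.14 and 7.06, and it stood at 50.8 to 67.9 CPM in all KO libraries. Hspa5 moved against the cytosolic Hsp70: it rose with HU by a log2FC of 0.63 ± 0.10 in WT cells and 0.78 ± 0.099 in the KO line. The mitochondrial chaperones and proteases gave 0 called of 8 with HU in either genotype by edgeR.

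The genes outside all lists whose log2 CPM followed the mean of the standardized levels of the 9 genes most closely were Pxylp1 (Pearson r = 0.987), Ccnd3 (0.982) and Srd5a1 (0.981) over the 12 libraries of the Myc experiment, among 10210 genes compared. Over the 8 libraries of the HU experiment they were Hadh (0.985), Tardbp (0.981) and Cdx2 (0.981), among 10162 genes. Among the members themselves, Hsph1 and Dnaja1 had r = 0.945, Hspa8 and Hsph1 0.880 and Hspa8 and Dnaja1 0.787 in the Myc experiment, and Hspa4 and Hsph1 had r = 0.975 in the HU experiment. Other pairs were opposed: Hspd1 and Dnaja1 had r = -0.787 and Hspa4 and Hsp90ab1 -0.771 in the Myc experiment. In the HU experiment Dnaja1 and Hsf1 had r = -0.933. The mean of the 9 genes thus combines members that moved against each other. These correlations run over groups of 2 libraries that share their condition and are given as descriptions.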

How the data were processed

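The authors mapped the RNA-seq reads to mm9 with STAR 2.5.4 and deposited whole-number counts per gene, 1 table per experiment. The counting tool is not given in the sources used here. The name of the Myc table calls its values normalized, but its columns are whole numbers with different totals and were used as raw counts. In the HU table, 70.2% to 73.3% of counts from 1 to 50 were even, against 47.1% to 49.6% in the Myc table. The authors' own edgeR 3.26.8 tables of fold changes and p-values were not used. Labels name TRIzol and a NEBNext Ultra II kit, without strand, and the study's methods an RNeasy kit.

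Each experiment was fitted alone in R 4.3.3 (edgeR 4.0.16, limma 3.58.1), using TMM factors, filterByExpr (0 genes removed) and a quasi-likelihood test on group coefficients. Benjamini-Hochberg adjusted p-values over all genes were called below 0.01 (Myc experiment) and 0.05 (HU experiment), the study's thresholds. The procedure was tested on simulated data. CPM used library totals, so that CPM ratios and log2FC differ slightly. All members are named, and up to 2 called genes of each other list with the largest change and a mean of at least 5 CPM. Other list genes in the text, and the Myc transcript, were chosen after their values were seen. The values of 1 listed target are not reported here. The members and lists were chosen with earlier results of these data known. Processed pseudogenes of chaperone genes may share reads with their parents. Promoters are from RefSeq, and positions and lengths from GENCODE M1 on NCBIM37. Alternatives included DESeq2 1.42.0, other filters and groups, a replicate block, and leaving out each library.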

Additional observations from a re-analysis of the deposited data

Results flagged for a closer look

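The responses of 6 listed genes to the Myc vector differed between a KO line and WT in the test of that difference itself, with the libraries as labelled. That test uses the same Ctrl libraries as the KO Ctrl results above and is not independent of them. In KO1 the difference of log2 fold changes was 0.38 for Hspa4, -0.56 for Dnaja1, -0.93 for Hsph1 and -0.66 for Hspa8. In KO2 it was 0.28 for Hspd1, 0.43 for Hspa4, -0.32 for Hsp90aa1, -0.49 for Dnaja1, -0.69 for Hsph1 and -0.76 for Hspa8. Hspa4, Dnaja1, Hsph1 and Hspa8 were called in each line and over both lines together. Hsp90aa1 was not called over both lines together (-0.09, adjusted p = 0.227 by edgeR's quasi-likelihood test), and Hspd1 was (0.20, adjusted p = 0.00998). The Hspd1 difference in KO2 was not called without WT Ctrl replicate 2 (adjusted p = 0.0140), KO2 Ctrl replicate 1 (0.0230) or KO2 Myc replicate 1 (0.0127). In KO1, Hspe1 and Hsp90ab1 were also called without WT Myc replicate 2 (-0.41 and -0.21, adjusted p = 0.000163 and 0.00757).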

How the results depend on the processing

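Of 135 pairs of a listed gene and a comparison, 46 were called, and 28 of these stayed called in every refit, 38 in every refit with all libraries. None of the 530 refits of called pairs changed sign, while 40 of all 1557 refits did, all of uncalled pairs. Hsp90aa1 in KO2 Myc against KO2 Ctrl was uncalled at -0.03 and was called at 0.20 with both KO lines averaged, an alternative chosen after seeing the data. With both lines averaged, KO Myc against WT Myc called 0 genes in place of 1 for either line. With only the compared groups in the fit, 2 genes were called between KO2 Ctrl and KO1 Ctrl in place of 1, 2 between WT Myc and WT Ctrl in place of 4, 0 in KO1 Myc and in KO2 Myc against WT Myc, and 7 between KO HU and WT HU in place of 1. That setting could not apply to the HU response difference, which uses all groups. In KO1 Myc against WT Myc, DESeq2 called 2 genes and the 5 CPM filter 0. Counts of the HU table divided by 2 gave 2 calls between KO HU and WT HU. Without 1 library, calls ranged from 0 to 0 between KO2 Ctrl and KO1 Ctrl, 0 to 3 in KO1 Myc and 1 to 4 in KO2 Myc against WT Myc, 3 to 5 with HU in WT and 1 to 2 in KO, 0 to 1 in KO against WT vehicle and 0 to 1 in KO HU against WT HU. Over all genes, the compared groups alone called 4029 in place of 2398 between KO2 Ctrl and KO1 Ctrl, 1541 in place of 3291 in KO1 Myc and 2775 in place of 4614 in KO2 Myc against WT Myc, and 1893 in place of 1233 between KO HU and WT HU. The 5 CPM filter left 1585 between KO2 Ctrl and KO1 Ctrl, and leaving out 1 library 1383 to 1475. KO1 Myc against WT Myc had 1906 without KO1 Myc replicate 2. DESeq2 called 727 in place of 1102 with HU in WT, 456 in place of 723 with HU in KO, 751 in place of 1349 in KO against WT vehicle, 736 in KO HU against WT HU and 5 in place of 8 for the HU response difference. Without 1 library of the HU experiment these fell to as few as 553, 389, 794, 518 and 0, and the last rose to 20 without WT vehicle replicate 1. The causes were not tested.

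The labels do not say whether replicate numbers pair the samples, and the reported fits used no block. Same-numbered libraries deviated with r between -0.371 and 0.496 (Myc experiment) and between -0.024 and 0.085 (HU experiment). Both extremes of the Myc experiment lay among libraries labelled Myc, 0.496 between WT Myc and KO1 Myc and -0.371 between WT Myc and KO2 Myc. These libraries thus shared part of their deviation, with KO2 Myc in reverse, and the cause was not tested. With the replicate number as a block, 2 genes were called in KO2 Myc against WT Myc in place of 1 and 2 in KO HU against WT HU in place of 1, and no other count of listed genes moved by over 1.5 times. With the numbers of KO2 Myc crossed, chosen after seeing the data, the block called 3 genes there, and 5327 of all genes. Scaling by TMM sizes moved 32 of 90 group levels by more than 1 SD. The lower depth of the HU experiment bears most on Hsf1, the listed gene with the lowest counts.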
